A study of Bos taurus with 96 samples.

Results

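Cholesterol synthesis and its control by SREBP2 were followed here through 7 genes, HMGCS1, IDI1, FDFT1, SQLE, LSS, DHCR7 and INSIG1, across 5 bovine fat depots and 1 muscle. A probe was assigned to a gene through its bovine RefSeq accession or, failing that, through the gene names in the study's probe tables. Of the 7 genes, 6 had at least 1 probe, and these genes had 11 of the 34227 probes tested. No probe was matched to HMGCS1, which is not analysed here. All 11 probes were well above background on all 96 arrays, so none of the 6 genes was lost to low signal.

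Animal cells make cholesterol from acetyl-CoA through mevalonate, isoprenoid units, squalene and a series of sterols. The transcription factor SREBP2 raises the enzymes of this route when sterols in the endoplasmic reticulum are low. INSIG1, itself raised by SREBP2, holds the SREBP2 escort protein SCAP in the endoplasmic reticulum when sterols are plentiful. Adipocytes store much of their cholesterol unesterified at the surface of the lipid droplet, and fat tissue is a large cholesterol pool of the body.

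Total RNA was hybridised to one-colour Agilent bovine arrays, 1 sample to an array. The fat came from under the skin of the rump (subcutaneous, SC), from between the muscles (intermuscular, Inter), from around the kidney (Kid), from the omentum (Omen) and from within the muscle (intramuscular, IMF). Each depot gave 12 arrays, 4 from Angus, 4 from Hereford and 4 from Wagyu x Angus steers, all labelled pasture. *Longissimus dorsi* muscle (LD) gave 36 arrays, 8 per breed labelled pasture and 4 per breed labelled with supplemental feeding. The series describes steers 26 months old after 259 days in a feedlot, and every array carries the label of 259 feedlot days, although the age field of the labels also reads 259 days. According to the methods, several depots were dissected from the same steer and IMF was dissected out of the LD. All fat came from 1 kill, whereas LD samples of both diets also came from animals slaughtered earlier. Differences between LD and fat can therefore also hold the kill, which cannot be told apart from tissue here. The labels give neither the steer nor the kill, so neither could be fitted, and p-values compare arrays rather than animals.

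A level below is the log2 processed signal of a probe minus the 75th percentile of its array, and 0 is therefore the brightness of the 75th percentile. Levels compare arrays for 1 probe, and not 1 gene with another. In bulk tissue a lower level cannot be assigned to fewer cells of a type or to less RNA per cell, which cannot be told apart. The share of probes well above background had a median between 74.0% and 83.8% over tissues. Summed myofibre markers (11 of 12 listed genes with a probe) had a median log2 level of 11.25 in IMF and 12.29 in LD on pasture, against 0.95 in SC, so IMF held much muscle RNA. Adipocyte markers (6 of 6 genes) had a median of 8.58 in IMF, between 9.08 and 9.59 in the other depots and 3.92 in LD on pasture. One Inter array, Wagyu x Angus on slide 5 at position 2, reached 9.87 for the myofibre markers against a median of 1.15. All 12 IMF arrays were scanned on the third of 3 days, all 12 Inter arrays on the second and 11 of the 12 SC arrays on the first.

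IDI1, the isomerase that interconverts the isoprenoid building blocks, was highest in SC and Kid. The 12 SC arrays lay between 1.25 and 2.63 with a median of 1.87. The Kid arrays had a median of 1.64 (0.84 to 2.78) and the Inter arrays one of 1.36 (0.27 to 1.99). In LD on pasture the median was 0.78 (0.41 to 1.29), in Omen 0.58 (0.07 to 1.87) and in IMF 0.32 (-0.19 to 1.44). Of the 12 IMF arrays, 11 were below every SC array, and of the Omen arrays 10 were. IMF was lower than SC by 1.46 ± 0.18 (log2 difference ± SE, n = 12 and 12, limma adjusted p = 1.39e-07), a 2.75-fold difference. Its second probe gave -1.74 for the same comparison (adjusted p = 2.1e-09).

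FDFT1, squalene synthase, was the 1 member higher in IMF and in LD than in SC. Its level was highest in LD on pasture, where the 24 arrays lay between 3.16 and 4.45 with a median of 3.67. The IMF arrays came next with a median of 2.61 (2.33 to 3.39), followed by Kid with 2.24 (1.67 to 2.88) and Inter with 2.08 (1.40 to 2.51). SC had a median of 1.73 (1.22 to 2.19) and Omen one of 1.51 (1.31 to 2.23). All 12 IMF arrays were above all 12 SC arrays and above all 12 Omen arrays, and all 24 LD arrays on pasture were above all SC arrays. IMF exceeded SC by 1.02 ± 0.13 (adjusted p = 2.34e-07) and LD on pasture exceeded SC by 2.01 ± 0.12 (adjusted p = 2.26e-18), while Omen and SC differed by -0.08 ± 0.12 (adjusted p = 0.61). The other probes of the gene also put IMF above SC, by 0.59 (adjusted p = 0.00011) and 1.29 (adjusted p = 1.99e-07).

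SQLE, squalene epoxidase, which commits squalene to sterols, was highest in Kid, with a median of 2.01 (1.40 to 3.08). Inter had a median of 1.22 (0.46 to 2.98), Omen one of 0.98 (0.32 to 1.92), SC one of 0.66 (-0.01 to 1.19) and IMF one of 0.38 (-0.92 to 1.69). LD on pasture was far lower, with a median of -1.61 (-2.21 to -1.06). Every Kid array was above every SC array, and every IMF array was above every LD array on pasture. The Kid arrays exceeded SC by 1.56 ± 0.19 (adjusted p = 5e-07), a 2.96-fold difference, and the IMF arrays spread on both sides of SC (difference -0.12 ± 0.24, adjusted p = 0.67).

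LSS, lanosterol synthase, which closes the sterol ring, fell in level from SC through IMF to LD. The SC arrays lay between -1.06 and 0.01 with a median of -0.42, and the Inter and Kid arrays had medians of -0.53 (-1.63 to 0.25) and -0.61 (-1.37 to 0.41). The Omen median was -1.08 (-1.43 to 0.04), the IMF median -1.72 (-2.50 to -0.36) and the LD pasture median -2.69 (-2.95 to -2.06). No LD array on pasture reached the lowest SC array. IMF was 2.2-fold below SC (-1.13 ± 0.19, adjusted p = 1.03e-05) and LD on pasture 4.52-fold below it (-2.18 ± 0.09, adjusted p = 1.79e-22). These values come from the brighter LSS probe, which is named through the study's tables alone. The dimmer one, named by RefSeq accession, had tissue means between -4.40 and -3.95 and did not pass the test in IMF against SC (-0.04, adjusted p = 0.87) or in LD on pasture against SC (-0.19, adjusted p = 0.27). The LSS results below hold for the brighter probe only.

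DHCR7, the reductase of the last step to cholesterol, varied least between tissues. Kid had a median of 1.17 (0.36 to 1.77), SC one of 0.93 (0.59 to 1.57) and Inter one of 0.77 (-0.00 to 1.43). Omen had a median of 0.42 (-0.19 to 0.93), LD on pasture one of 0.41 (-0.19 to 1.003) and IMF one of 0.06 (-0.25 to 0.66). Of the 12 IMF arrays 10 were below every SC array, and of the 12 Omen arrays 9 were. IMF was lower than SC by 0.75 ± 0.12 (adjusted p = 8.65e-06), and Kid and SC differed by 0.17 ± 0.15 (adjusted p = 0.41).

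INSIG1, the sterol-dependent brake on SREBP2, was high in the 3 depots of the body cavity and between the muscles. Inter, Kid and Omen had medians of 1.38 (0.55 to 2.18), 1.30 (0.80 to 1.72) and 1.22 (0.42 to 2.27), and no pair of them passed the test. SC and IMF had medians of 0.28 (-0.90 to 1.06) and 0.03 (-0.60 to 1.22), and LD on pasture one of -0.75 (-1.62 to -0.19). Of the Kid arrays 10 were above every SC array, and of the Inter and Omen arrays 8 each. The differences from SC were 1.14 ± 0.21 for Inter (adjusted p = 0.00011), 1.13 ± 0.19 for Kid (adjusted p = 5.66e-05) and 1.03 ± 0.23 for Omen (adjusted p = 0.000716). A second, dim INSIG1 probe was also higher in these 3 depots, by 0.57, 0.43 and 0.58, with adjusted p of 0.00254, 0.023 and 0.00311. One Omen array had no value for it after outlier spots were dropped. On the brighter probe the SC mean was -0.14 in Angus, -0.12 in Wagyu x Angus and 0.80 in Hereford (n = 4 each). The Inter, Kid and Omen means were 1.33, 1.22 and 1.14 in Angus and 1.59, 1.42 and 1.49 in Wagyu x Angus. In Hereford they were 1.05, 1.28 and 0.99, so the differences from SC were smaller in that breed.

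**Figure D1:**
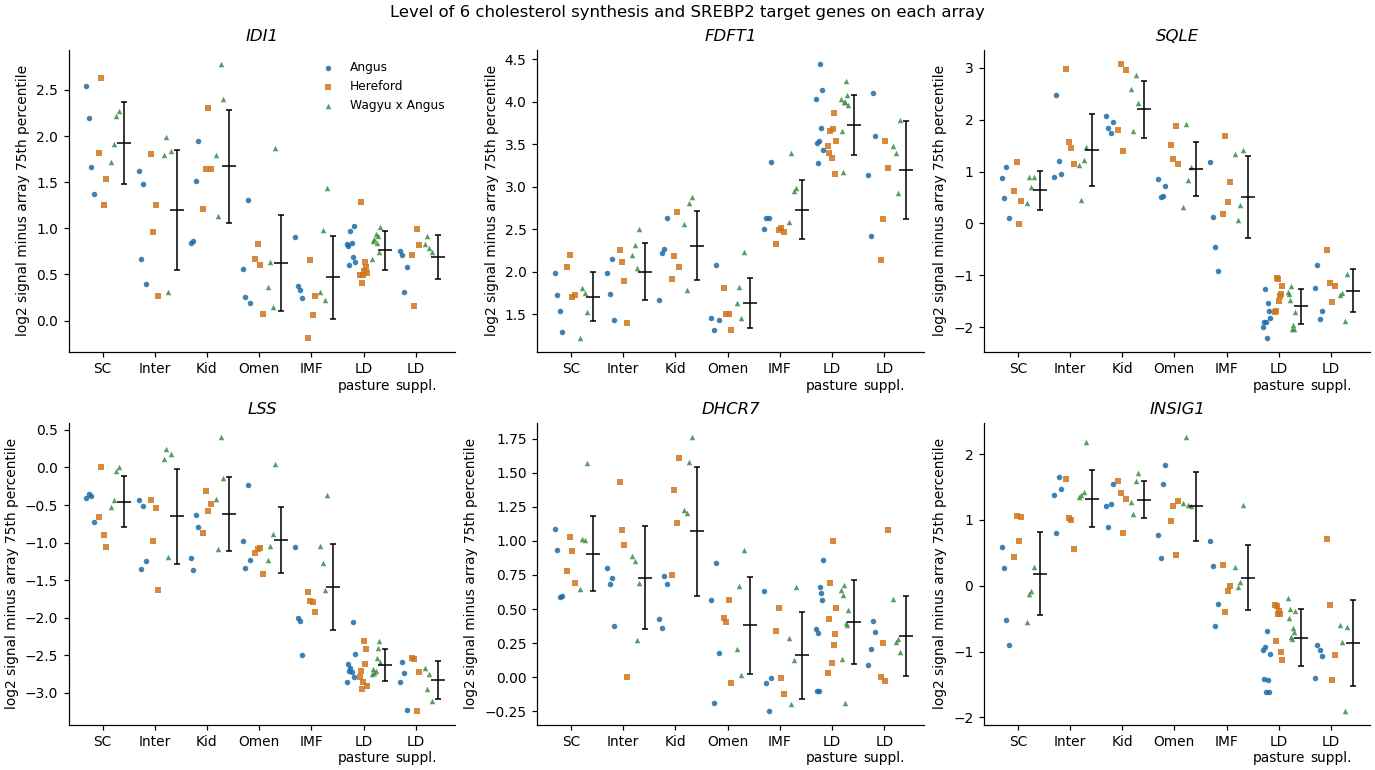
Level of each of the 6 genes on each of the 96 arrays (y axis, log2 signal minus the 75th percentile of the array) by tissue (x axis), with breed as colour and marker. The bar beside each group is the mean ± SD over its arrays. FDFT1 rises from SC to IMF to LD whereas LSS falls, and SQLE and INSIG1 are highest in Inter, Kid and Omen.

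Taking each depot against SC, the members moved in both directions, and much of the array moved too. In IMF 1 of 6 members was higher and 3 were lower, where 31.2% of all probes were higher and 33% lower. Inter had 2 members higher, SQLE by 0.78 and INSIG1, and IDI1 lower by 0.73 ± 0.22 (adjusted p = 0.00806), where 21.6% of probes were higher and 27.2% lower. The dimmer IDI1 probe did not pass the test there (-0.39, adjusted p = 0.12), and both dimmer FDFT1 probes did (0.35 and 0.79), whereas the brightest gave 0.29 (adjusted p = 0.058). Kid had 3 members higher, SQLE, INSIG1 and FDFT1 (0.60 ± 0.14, adjusted p = 0.00157), and none lower, against 19.4% and 22.2% of all probes. In Omen, INSIG1 was higher and IDI1 (-1.30), DHCR7 (-0.53) and LSS (-0.51) were lower, against 20.5% and 25.2% of all probes. The depots share the SC arrays, so these counts are not independent.

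Scan day differed between most of these groups. With scan day as a term in a fit over all 96 arrays, where LD and Kid arrays were scanned on all 3 days, the calls in IMF, Inter and Kid against SC were the same and SQLE was added in Omen (0.73, adjusted p = 0.0255), with IMF minus SC differences of -1.32 for LSS, -0.77 for DHCR7, -1.49 for IDI1 and 0.78 for FDFT1. On the IMF and SC arrays alone the term leaves a single SC array, an Angus scanned on the third day, for the contrast, and then FDFT1 alone passed (LSS -0.86, DHCR7 -0.44 and IDI1 -0.90, adjusted p of 0.22, 0.34 and 0.16). The Omen contrast rests on the same SC array, and there INSIG1 alone passed (LSS -0.20, DHCR7 -0.18 and IDI1 -0.70, adjusted p of 0.84, 0.82 and 0.46).

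**Figure D2:**
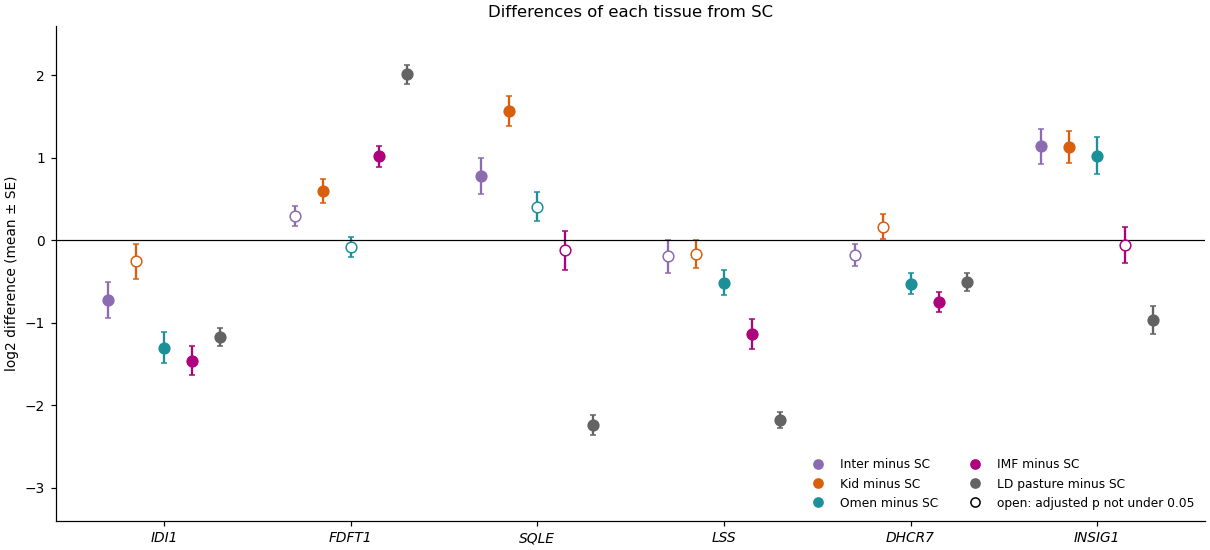
Log2 difference from SC (y axis, mean ± SE of the limma fit) of the 6 genes (x axis) in Inter, Kid, Omen, IMF and LD on pasture. Filled points have an adjusted p under 0.05 over all 34227 probes. IDI1, LSS and DHCR7 have no filled point above 0, and FDFT1 has none below it.

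IMF was lower than Inter and Kid for 5 of the 6 members, and lower than Omen for 2. Compared with Inter, 5 members were lower in IMF and FDFT1 was higher, where 30% of all probes were lower and 32.8% higher. Kid gave the same division, 5 lower and FDFT1 higher, against 27.4% and 28.4% of all probes. The largest of these differences was that of SQLE between IMF and Kid, -1.69 ± 0.27 (adjusted p = 1.07e-05), a 3.22-fold difference. FDFT1 exceeded Kid in IMF by 0.42 ± 0.15 (adjusted p = 0.0207), and by 0.64 on another of its 3 probes (adjusted p = 0.0131), but the remaining probe gave -0.00 (adjusted p = 0.98), and with scan day in the fit over all arrays the first gave 0.19 (adjusted p = 0.42). Against Inter the remaining probe did not pass either (0.24, adjusted p = 0.10). With scan day on the IMF and Kid arrays alone, which leaves 1 Kid array for the contrast, none of the 6 passed, although each kept its direction (SQLE -1.24, INSIG1 -1.12, IDI1 -1.04, LSS -0.95, DHCR7 -0.58 and FDFT1 0.46). With the term over all 96 arrays the other 5 passed. Against Omen, INSIG1 (-1.08 ± 0.20) and LSS (-0.62 ± 0.20) were lower in IMF and FDFT1 was higher (1.10 ± 0.13), where 28.4% of probes were lower and 27.8% higher. IDI1 gave -0.16 (adjusted p = 0.50) against Omen on the probe that stands for it, but its other probe was lower in IMF (-0.66, adjusted p = 0.00832). The dimmer LSS probe passed in the opposite direction against Inter (0.40, adjusted p = 0.0434), and averaged over both of its probes LSS did not pass the test against Inter (-0.27, adjusted p = 0.15) or Omen (-0.17, adjusted p = 0.27).

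Among the other depots, Kid was above Omen for 4 of the 6 members and below it for none. The differences were 1.16 ± 0.21 for SQLE (adjusted p = 0.00136), 1.05 ± 0.22 for IDI1 (adjusted p = 0.00444), 0.69 ± 0.17 for DHCR7 (adjusted p = 0.00944) and 0.68 ± 0.14 for FDFT1 (adjusted p = 0.0042). In that comparison 6.34% of all probes were higher and 5.78% lower. Between 6 Kid and 2 Omen arrays scanned on the second day, the same differences were 1.55, 1.46, 1.02 and 0.95, and between 1 Kid and 10 Omen arrays of the third day they were 0.63, 0.84, 0.32 and 0.59. With scan day as a term on these 24 arrays, the differences were 1.20, 1.22, 0.76 and 0.81 and none of the 4 passed (adjusted p from 0.0724 to 0.13), whereas all 4 passed with the same term over all 96 arrays.

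Inter was below Kid for SQLE alone (-0.79 ± 0.24, adjusted p = 0.0323), where 7.84% of probes were higher and 7.58% lower. This call was lost without the 2 Inter arrays highest in myofibre markers (-0.74, adjusted p = 0.073) and without the Kid array highest in adrenal cortex markers (-0.71, adjusted p = 0.0502). It was also lost with slide as a random block (-0.71, limma adjusted p = 0.14). The same held with scan day as a term on the Inter and Kid arrays (-0.82, limma adjusted p = 0.094). Between Inter and Omen no member passed limma's test, although 3 had an unadjusted p under 0.05, where 5.87% of probes were higher and 7.69% lower. FDFT1 was at 0.37 (adjusted p = 0.0536) on the probe that stands for it, and its other probes were higher in Inter by 0.47 (adjusted p = 0.0263) and 0.66 (adjusted p = 0.00524).

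LD on pasture was lower than SC for 5 members and higher for FDFT1, where 40.2% of all probes were lower and 42.7% higher, so most probes passed in this comparison. The falls reached 2.24 ± 0.12 for SQLE, a 4.72-fold difference (adjusted p = 2.39e-19), and were 1.17 ± 0.11 for IDI1, 0.97 ± 0.17 for INSIG1 and 0.50 ± 0.11 for DHCR7. The second INSIG1 probe did not pass in LD and had the opposite sign, with 0.23 against SC (adjusted p = 0.0941) and -0.22 in IMF against LD (adjusted p = 0.0891).

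Against LD on pasture, IMF was higher for SQLE (2.11 ± 0.18), LSS (1.04 ± 0.13) and INSIG1 (0.91 ± 0.16), where 36% of probes were higher, and lower for FDFT1 (-0.99 ± 0.12), IDI1 and DHCR7, where 39.3% were lower. For SQLE, LSS, FDFT1 and INSIG1 the IMF mean lay between the means of SC and LD. IDI1 and DHCR7 had IMF means below both, by 0.29 ± 0.11 (adjusted p = 0.0163) and 0.24 ± 0.11 (adjusted p = 0.0457) with respect to LD. The DHCR7 call was lost in 9 of 17 alternative settings and the IDI1 call in 4 of 17, and the second IDI1 probe gave -0.34 (adjusted p = 0.00977).

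Myofibre markers varied among the 12 IMF arrays, on which their summed log2 level ran from 10.16 to 11.70. Of 6 relations computed with the members, that of DHCR7 alone passed after adjustment, with Pearson r = -0.75 (permutation p = 0.00708, adjusted 0.0425) and Spearman rho = -0.74 (permutation p = 0.00723, adjusted 0.0434). Without the 2 arrays farthest from the median marker level, r was -0.89 over 10 arrays. LSS, INSIG1 and SQLE had r of -0.65, -0.60 and -0.57 (adjusted permutation p of 0.0572, 0.0699 and 0.0802), and -0.80, -0.73 and -0.74 without those 2 arrays. FDFT1 had 0.44 (adjusted permutation p = 0.19) and 0.26 without them. IDI1 had -0.06 over 12 arrays (adjusted permutation p = 0.86) and -0.63 over 10, so its value near 0 rests on 2 arrays. All 12 of these arrays were scanned on one day, and a breed held only 4 of them, too few for a value within breeds. The part of muscle RNA in the differences between IMF and the other depots was not tested.

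The wider route was read from 32 further genes of synthesis, SREBP control and sterol transport, of which 25 had a probe. SREBF2, which encodes SREBP2, had none and is not analysed here. In IMF against SC 2 of these 25 genes were higher and 17 lower, where 31.2% of all probes were higher and 33% lower. The median difference of the 25 genes was -0.64, against -0.00 over all probes. The largest falls were those of SCAP, the SREBP escort protein (-1.40 ± 0.14, adjusted p = 7.54e-09), and TMEM97, a sterol-responsive membrane protein (-1.18 ± 0.14, adjusted p = 8.05e-08). The dimmer SCAP probes gave -0.03 (adjusted p = 0.89) and 0.45 (adjusted p = 0.0333), the latter in the opposite direction, so the fall rests on 1 of 3 probes. All 3 TMEM97 probes fell by 1.17 to 1.18. With scan day as a term on the IMF and SC arrays, which rests on 1 SC array, the TMEM97 difference was -0.99. FDPS, which makes farnesyl diphosphate, was higher by 0.41 ± 0.08 (adjusted p = 8.88e-05).

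In the remaining depots CYP51A1, the lanosterol demethylase, was higher than SC in Inter (0.80 ± 0.17), Kid (1.44 ± 0.17) and Omen (0.57 ± 0.12), on both of its probes. Other enzymes of the same route were lower in the depots where CYP51A1 was higher. TM7SF2, a sterol reductase, was below SC by 0.82 ± 0.17 in Inter, by 0.96 ± 0.16 in Kid and by 0.95 ± 0.15 in Omen. EBP, a sterol isomerase, was below it by 0.66 ± 0.14 in Kid and 0.98 ± 0.13 in Omen, and PMVK, phosphomevalonate kinase, by 0.65 ± 0.13 in Inter. With scan day as a term on the Omen and SC arrays, which rests on 1 SC array, CYP51A1, EBP and TM7SF2 did not pass in Omen but kept their direction, with 0.74, -0.94 and -0.91 (adjusted p of 0.20, 0.12 and 0.20). By counts, 4 of the 25 genes were higher and 9 lower in Inter, 6 and 5 in Kid, and 3 and 14 in Omen. Of all probes 21.6% were higher and 27.2% lower in Inter, 19.4% and 22.2% in Kid, and 20.5% and 25.2% in Omen, so the counts in Inter and Kid were near those shares. The genes had median differences of -0.15, 0.05 and -0.33 against -0.05, -0.01 and -0.03 over all probes.

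In Kid against Omen 14 of the 25 genes were higher in Kid and none lower, where 6.34% and 5.78% of all probes were, with a median of 0.36 against 0.02 over all probes, CYP51A1 (0.87 ± 0.17) among them. Inter was lower than Kid for 5 genes and higher for none, CYP51A1 (-0.65 ± 0.20, adjusted p = 0.0346) among them, where 7.58% of all probes were lower and 7.84% higher. The median difference was -0.19 against -0.04 over all probes. Inter was higher than Omen for 3 genes, against 5.87% of all probes, among them MVD, mevalonate diphosphate decarboxylase (0.35 ± 0.11, adjusted p = 0.04), and HSD17B7, a sterol ketoreductase (0.34 ± 0.10, adjusted p = 0.0256). When single arrays were left out, the CYP51A1 call was kept in 15 of 24 fits and the MVD call in 10 of 24. With scan day as a term on the arrays compared, CYP51A1 did not pass in Inter against Kid (-0.58, adjusted p = 0.16) or in Kid against Omen (0.79, adjusted p = 0.11), nor MVD (0.54, adjusted p = 0.15) or HSD17B7 (0.60, adjusted p = 0.0797) in Inter against Omen. All 4 differences kept their direction.

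More of the 25 genes were lower than higher in IMF against these 3 depots, 17 and 2 against Inter, 18 and 1 against Kid, and 15 and 3 against Omen, where 30%, 27.4% and 28.4% of all probes were lower. The medians were -0.55, -0.51 and -0.28, against 0.04, 0.02 and 0.02 over all probes. NPC1, which exports cholesterol from lysosomes, had the largest fall each time, by 1.57 ± 0.16 against Inter, 1.90 ± 0.15 against Kid and 1.42 ± 0.15 against Omen. NSDHL, a sterol dehydrogenase, followed in Inter (-1.11 ± 0.13) and Omen (-0.98 ± 0.13). Higher in IMF were, among others, TM7SF2, by 0.63, 0.76 and 0.75 in the same order, and MVD against Inter (0.42 ± 0.14) and Omen (0.77 ± 0.12). With scan day over all 96 arrays neither passed against Inter, with 0.30 for TM7SF2 (adjusted p = 0.20) and 0.15 for MVD (adjusted p = 0.44). With scan day on the IMF and Kid arrays alone, which leaves 1 Kid array for the contrast, TM7SF2 was at 0.66. Summed macrophage markers (6 of 7 listed genes with a probe) were also low in IMF, with a median log2 level of 4.09. They had 6.57 in Inter, 6.31 in Kid, 5.60 in Omen and 5.78 in SC. Their part in the differences between IMF and these depots was not tested.

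All 25 of these genes passed the test in LD on pasture against SC, 19 lower and 6 higher, where 40.2% and 42.7% of all probes did. Their median difference was -1.05 against 0.05 over all probes. NPC2, the lysosomal partner of NPC1 (-2.93 ± 0.08), and ACAT2, an acetyl-CoA acetyltransferase (-2.78 ± 0.11), fell most. MVD (1.39 ± 0.10) and FDPS (0.87 ± 0.06), which act upstream of FDFT1 in the route, rose most. Against LD, where 36% of all probes were higher and 39.3% lower, IMF had 15 genes higher and 7 lower, NPC2 (1.79 ± 0.13) among the former and MVD (-1.12 ± 0.10) among the latter.

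**Figure D3:**
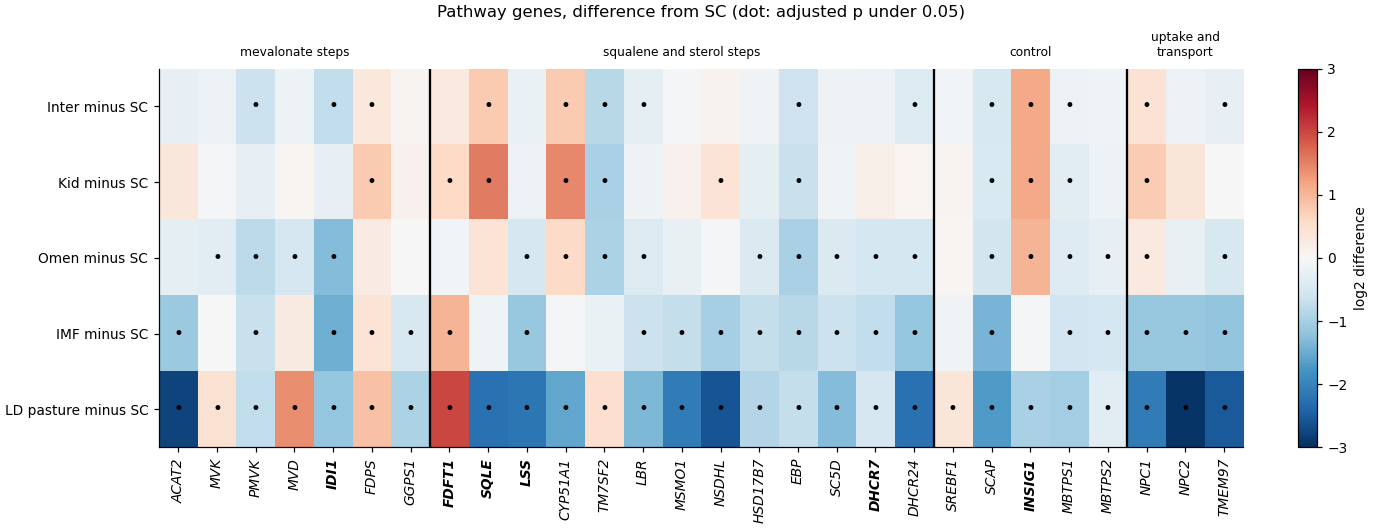
Log2 difference from SC (colour) of 28 genes with a probe (columns, members in bold, grouped by step) in the 5 other tissues (rows). A dot marks an adjusted p under 0.05. FDFT1, FDPS and MVD stand out as positive in the LD row, where 22 of the 28 genes are lower, and CYP51A1, SQLE and INSIG1 share positive values in Inter, Kid and Omen.

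The LD arrays allow the post-weaning supplement to be compared with pasture alone. FDFT1 was the 1 member of 6 that passed the test, where 11.2% of all probes did. Summed adipocyte markers had a median log2 level of 2.14 with supplement and 3.92 on pasture alone, summed myofibre markers had 12.60 and 12.29, and their part in the diet differences was not tested. The level of FDFT1 on the 12 supplement arrays ran from 2.14 to 4.10 with a median of 3.31, against 3.16 to 4.45 with a median of 3.67 on the 24 pasture arrays, and 5 supplement arrays were below every pasture array. The difference was -0.52 ± 0.14 (adjusted p = 0.0146), and the other probes gave -0.38 (adjusted p = 0.0426) and -0.45 (adjusted p = 0.0579). The Hereford arrays gave -0.63, the Wagyu x Angus arrays -0.50 and the Angus arrays -0.45.

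Against pasture arrays scanned on the same day as the supplement arrays of the breed (4 of 8 in each breed), the FDFT1 differences were -0.58 in Hereford, -0.32 in Wagyu x Angus and -0.28 in Angus. Over these 24 arrays the difference was -0.39 (adjusted p = 0.18), with scan day as a term over all LD arrays -0.40 (adjusted p = 0.12), and with slide as a random block -0.52 (adjusted p = 0.66). No slide held LD arrays of both diets, so a difference between slides cannot be told apart from diet. The call therefore did not hold within scan days, and the part of the kill in it was not tested, since the labels do not give the kill.

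SQLE had the next smallest p, with a difference of 0.30 ± 0.12 (adjusted p = 0.0824) and of 0.20 within scan days (adjusted p = 0.42). LSS gave -0.20 (adjusted p = 0.13), and DHCR7, INSIG1 and IDI1 differed by at most 0.10 (adjusted p from 0.62 to 0.80). Of the 25 further genes 3 passed, a share near the 11.2% of all probes that did. Among them were LBR, a sterol reductase of the nuclear envelope (0.39 ± 0.08), and MBTPS2, an SREBP protease (0.21 ± 0.06), both higher. Within scan days LBR passed (0.35, adjusted p = 0.0116) and MBTPS2 did not (0.20, adjusted p = 0.0848), and with slide as a random block neither did, at 0.39 and 0.21 (adjusted p of 0.41 and 0.66). No member passed the test of whether the effect of supplement differs between breeds (limma, lowest adjusted p = 0.42, none with an unadjusted p under 0.05), where 16.2% of all probes passed.

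**Figure D4:**
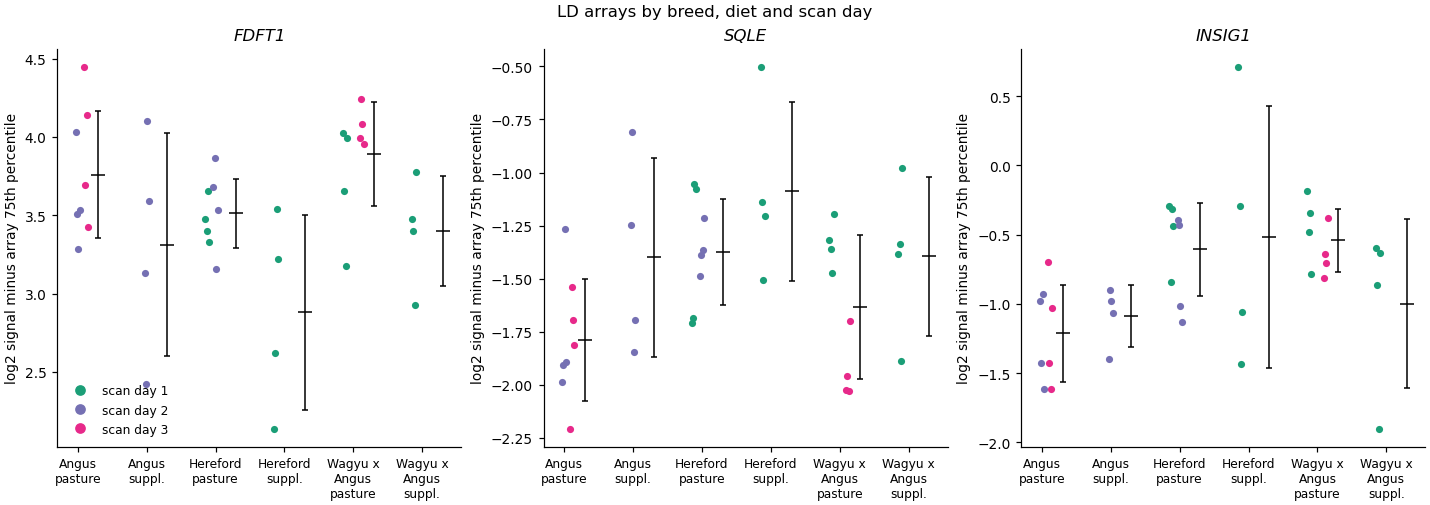
Levels of FDFT1, SQLE and INSIG1 on the 36 LD arrays (y axis, log2 signal minus the 75th percentile of the array) by breed and diet (x axis), coloured by scan day, with mean ± SD beside each group. FDFT1 means are lower with supplement in all 3 breeds, with overlapping arrays, and INSIG1 is lowest in Angus on pasture.

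Breed was compared over the 60 fat arrays with depot as a covariate. LSS alone of the 6 members passed (adjusted p = 0.0221), where 3.2% of all probes did. Its level on the 20 Wagyu x Angus arrays ran from -1.64 to 0.41 with a median of -0.42, against -2.50 to -0.23 with a median of -1.02 in Angus and -1.93 to 0.01 with a median of -1.02 in Hereford. The ranges overlapped, but the Wagyu x Angus mean was the highest of the 3 in all 5 depots, by 0.16 to 0.72. Wagyu x Angus exceeded Hereford by 0.50 ± 0.14 (adjusted p = 0.0286), where 3.5% of probes passed, and Angus by 0.52 ± 0.14 (adjusted p = 0.0525), where 0.754% did. Hereford and Angus differed by 0.02 ± 0.14, and 0.567% of probes passed in that pair.

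The dimmer LSS probe did not pass in the same test (adjusted p = 0.15) and gave -0.07 for Wagyu x Angus against Hereford. Each breed's 20 arrays come from fewer steers, which the test treats as independent. IDI1 was also highest in Wagyu x Angus in all 5 depots, without passing (adjusted p = 0.33). Of the 25 further genes, 4 passed over breeds, where 3.2% of all probes did, among them MVK, mevalonate kinase, and SCAP. MVK was higher in Wagyu x Angus than in Angus by 0.29 ± 0.07, where 0.754% of probes passed. SCAP was higher in Wagyu x Angus than in Hereford by 0.52 ± 0.10, where 3.5% did. This is the brightest SCAP probe, with which the dimmer ones disagreed in IMF against SC. Their breed differences are not reported here. No member passed the test of whether depot differences depend on breed (limma, lowest adjusted p = 0.67, 1 member with an unadjusted p under 0.05), where 0% of all probes passed. That member was INSIG1 (unadjusted p = 0.0471), whose IMF minus SC difference was 0.17 in Angus, 0.51 in Wagyu x Angus and -0.84 in Hereford.

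**Figure D5:**
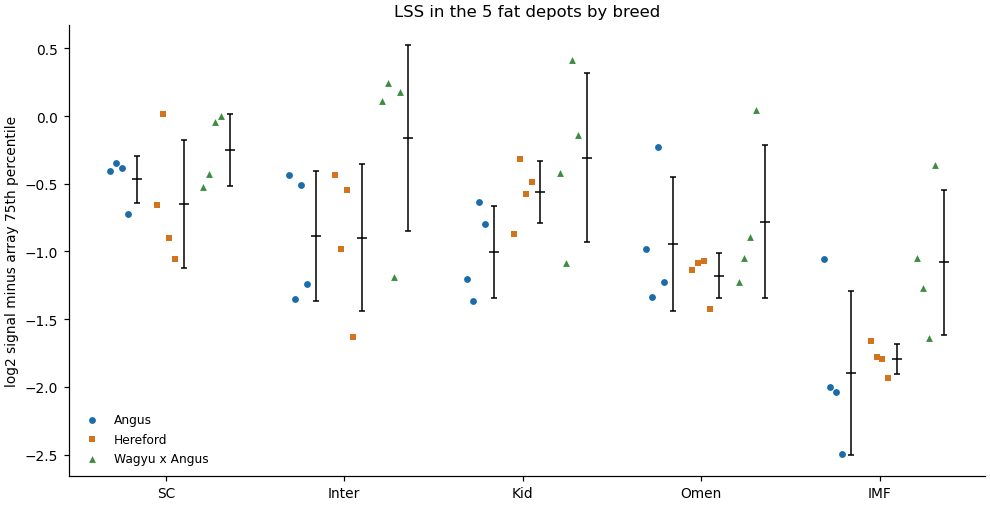
Level of LSS (y axis, log2 signal minus the 75th percentile of the array, brighter probe) on the 60 fat arrays by depot (x axis) and breed (colour and marker), with mean ± SD over the 4 arrays of each group. The Wagyu x Angus mean is the highest in each depot, and the arrays of the breeds overlap.

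In LD on pasture INSIG1 alone of the members differed between breeds (adjusted p = 0.0117), where 14.7% of all probes did. Its second probe did not pass (adjusted p = 0.0951). The 8 Angus arrays lay between -1.62 and -0.70 with a median of -1.23, the Hereford arrays between -1.13 and -0.29 with a median of -0.44, and the Wagyu x Angus arrays between -0.81 and -0.19 with a median of -0.56. Angus was lower than Hereford by 0.61 ± 0.15 (adjusted p = 0.0164), where 8.78% of probes passed, and lower than Wagyu x Angus by 0.67 ± 0.15 (adjusted p = 0.033), where 1.72% did. Hereford and Wagyu x Angus differed by 0.06 ± 0.15 (adjusted p = 0.81), where 10.8% of probes passed. The adjusted p was 0.06 with scan day as a term and 0.57 with slide as a random block, so the call did not hold with either. The Angus arrays lay on slides that held no other breed, so a difference between slides cannot be told apart from breed there. Of the 25 further genes 2 passed, where 14.7% of all probes did. Among them was PMVK (adjusted p = 0.0493), higher in Wagyu x Angus than in Hereford by 0.39 ± 0.12.

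How the members vary together was described by the deviations of each array from the mean of its own tissue, breed and diet group, over 96 arrays, with no test, since arrays share slides, scan days and steers. IDI1 and LSS were the closest pair (r = 0.74), followed by LSS and DHCR7 (0.58) and DHCR7 and IDI1 (0.52). FDFT1 followed IDI1 (0.50) but not INSIG1 (0.05) or SQLE (-0.12). The correlation of each member with the mean of the other 5 was 0.68 for IDI1, 0.67 for LSS, 0.66 for DHCR7, 0.36 for INSIG1, 0.34 for SQLE and 0.28 for FDFT1.

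For the 10674 named genes outside the members, each gene was ranked on its closest probe, so genes with more probes had more chances. The probe ranked is not always the one that stands for the gene elsewhere, as for EBP. The 10 closest to the members' mean deviation were GPX4, ACAT2, CYRIB, PCYT2, MSMO1, PGD, HSD17B12, EBP, NSDHL and DECR1, with r from 0.65 to 0.72. ACAT2, MSMO1, EBP and NSDHL belong to the wider route, in which MSMO1 and NSDHL act together to remove methyl groups from the sterol. SREBF1, which encodes SREBP1, ranked 6667 (r = 0.02).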

How the data were processed

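Per the labels, 96 one-colour Agilent arrays were hybridised with total RNA. The authors deposited scanner intensity values, of which the background-subtracted processed signal was used here, and a table of log2 values per probe. Every one of its 3285792 values lay within 0.0001 of log2 of the median signal minus local background, floored at 1, so it carries no scaling between arrays. Outlier spots were dropped, spots of a probe averaged on the log2 scale, and each array scaled to its 75th percentile. Names were found for 62.7% of the 34227 probes of the table. The probe with the highest mean stood for a gene, except in the ranking of named genes by likeness to the members, which took the closest probe of each. Per comparison the 2 largest changes each way among the further genes were named. Some genes of the wider list are counted but not reported here by name. The members and lists were chosen with earlier results of these data known. Groups were compared with limma 3.58.1 in R 4.3.3 (lmFit, eBayes, no covariate between tissues, breed for diet and depot for breed) and Benjamini-Hochberg adjustment over all probes at 0.05, after tests on simulated data. Same-numbered arrays of both diets, which share a slide position, deviated together (correlations from 0.13 to 0.19), and the block on that number changed no diet call of a member. Correlations with myofibre markers used 100000 permutations, two-sided. Figures used Python with matplotlib 3.10.9. No sequence or position is given because a genome of the array's build was not used here. The number of arrays limits the precision.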

Additional observations from a re-analysis of the deposited data

Results flagged for a closer look

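Within groups of 4 to 8 arrays, 8 of 126 combinations of gene and group held an array far from the others, against about 1 in 20 by chance. In Inter of Wagyu x Angus the array on slide 5 at position 2, the one with the highest myofibre level of the depot, was lowest for LSS (-1.19, next 0.11) and for IDI1 (0.31, next 1.79). Another array of this group, at position 3 of the slide, was highest for INSIG1 (2.18, next 1.43). In Omen of Wagyu x Angus 1 array was highest for INSIG1 (2.27, next 1.26), and in IMF of Angus 1 was highest for FDFT1 (3.30, next 2.63). SC of Angus held 1 array lowest for LSS (-0.73, next -0.41). In LD on pasture 1 Angus array was highest for LSS (-2.06, next -2.48) and 1 Hereford array was highest for IDI1 (1.29, next 0.64). Without that Hereford array IDI1 passed the test over breeds in LD (adjusted p = 0.0117, against 0.17 with it).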

How the results depend on the processing

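No member changed direction past the threshold in any setting. Scan day as a fixed block on the arrays compared left 1 member in IMF and 1 in Omen against SC, 0 in IMF against Kid, in Inter against Kid, in Kid against Omen and in the diet comparison, and 0 over breeds in LD. It could not be fitted for Inter against SC or IMF. Slide as a random block left 0 in Inter against Kid, in the diet comparison and over breeds in LD. Inter against Kid also had 0 with mean-centred arrays, 0 without the Inter or Kid arrays named above (settings chosen after seeing the data) and 0 to 1 when single arrays were left out. Inter against Omen had 1 with mean-centred arrays, averaged probes, breed as a covariate or the spread of all arrays, 2 with scan day over all arrays, and 0 to 2 leaving out single arrays. Leaving out single arrays gave 1 to 2 for diet, where SQLE passed without the Angus supplement array on slide 1 at position 3 or the Wagyu x Angus one on slide 6 at position 3, and 1 to 2 for breeds in LD. In Inter against Kid the SQLE call was kept in 17 of 24 such fits, and in IMF against LD the DHCR7 call in 15 of 36. The diet call was 0 within scan days, and diet by breed had 1 member (LSS) with averaged probes. The replicate block, in which the number is a slide position and names no animal (correlations of same-numbered deviations from SC between -0.01 and 0.28 over the 4 depots), left 5 members in place of 6 in IMF against LD and changed no other count.

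Over all probes, some scalings moved the share higher among called probes. Normexp background correction took it in IMF against SC from 48.6% to 27.8% (median shift -0.21, with the same 4 members called), in Inter from 44.2% to 19.2%, in Kid from 46.6% to 20.1%, in Omen from 44.9% to 19.6%, in IMF against LD from 47.8% to 28.1% and against Inter from 52.2% to 64.2%, and in Inter against Omen from 43.3% to 29.2%. Mean-centring took it in Inter and Kid against SC to 62% and 57.4%, in IMF against Inter from 52.2% to 34.5% and against Kid from 50.9% to 36.3%, and in Inter against Kid from 50.8% to 69.6% and against Omen to 67.5%. Quantile normalization gave 40.1%, 39.6% and 58% in IMF against Inter, IMF against Kid and Inter against Omen. The authors' table gave 69.2% in Inter against Kid, 29.9% in Kid against Omen in place of 52.3%, and 73.2% for diet in place of 50.2%.

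The number of probes called fell most with the blocks. Scan day on the arrays compared left 6847 of 21957 in IMF against SC, 1511 of 15654 in Omen against SC, 1694 of 19115 in IMF against Kid and 281 of 4150 in Kid against Omen. The slide block left 1 of 3850 for diet, 0 of 5539 for diet by breed and 0 of 5044 for breeds in LD. Normexp left 1140, 1122 and 2492 in these last comparisons.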
